A study of Mus musculus with 12 samples.

Results

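The interferon-induced ADP-ribosylation genes described here are *Parp9*, *Parp10*, *Parp11*, *Parp12*, *Parp14*, *Dtx3l* and *Zc3hav1*. They were chosen by name, with earlier results of these data known, as 7 of the 54532 genes listed for each library. They were found by matching Ensembl identifiers to mouse gene symbols. All 7 passed the filter on low counts that left 16840 genes for testing.

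The study compared stimulators of L929 cells, an established mouse fibroblast line, by RNA sequencing. Polyadenylated RNA was collected 6 hours after transfection and read in pairs of 150 bases. The 12 libraries carry 6 labels with 2 libraries each. The mock libraries are labelled as untreated, the HT-DNA, hpRNA, G3-YSD and HSV libraries as transfected with the agent of that name, and the cGAMP libraries as stimulated with cGAMP, the cyclic dinucleotide that the sensor cGAS makes on binding DNA. All 12 are given as L929 and none as carrying a genetic change, so every group rests on a single cell line. Transfections were made in duplicate, and the labels do not say whether the 2 libraries came from separate cultures, so p-values measure only the spread between these libraries, which may be technical. The digits 1 and 2 in the HSV titles could also name virus types, which the labels do not settle.

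PARP enzymes take ADP-ribose from NAD+ and attach it to proteins or nucleic acids, and most of the members described here can attach only a single ADP-ribose unit at a time. PARP9 forms a complex with DTX3L, an E3 ubiquitin ligase of the deltex family, while ZAP, the product of *Zc3hav1*, lacks the catalytic activity and binds CpG-rich viral RNA. Type I interferon raises many of these genes through its receptor and the kinases JAK1 and TYK2, which act on transcription through the interferon-stimulated response element (ISRE) in promoters.

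Before any result it has to be said that the libraries did not group by their labels. By correlation over all tested genes, the nearest neighbour of every library carried a different label but the same number, in 6 reciprocal pairs that joined mock with hpRNA, HT-DNA with cGAMP, and G3-YSD with HSV. Values are therefore given by library, named by label and number. Total counts were 12650790 to 18912400 per library. Of 8 fibroblast markers, *Vim*, *Sparc*, *Col1a1* and *Fn1* were abundant, and the list summed to 3113 to 5154 CPM (counts scaled to the size of the library), while *Thy1* reached at most 0.488 CPM. The 6 macrophage markers summed to 73.9 to 105 CPM, nearly all from *Cd68* and *Lyz2*, with *Ptprc* at most at 1.08 CPM. *Csf1r* ran from 0.307 CPM in HT-DNA 2 to 2.48 CPM in HSV 2. The 5 epithelial markers summed to 0.244 to 0.778 CPM in the 8 libraries of mock, HT-DNA, hpRNA and cGAMP and to 1.48 to 4.79 CPM in the 4 of G3-YSD and HSV: *Krt8* ran from 0.183 CPM in mock 2 to 3.96 CPM in HSV 2, *Cdh1* from 0 to 0.674 CPM, and *Epcam* and *Krt19* reached at most 5 and 6 counts. The 4 endothelial markers summed to 0.549 to 1.11 CPM in the first 8 libraries and to 6.00 to 11.8 CPM in the same 4: *Kdr* ran from 0.0610 CPM in mock 2 to 10.5 CPM in G3-YSD 1, *Pecam1* from 0.156 CPM in HT-DNA 1 to 3.47 CPM in HSV 2 and *Tek* from 0.130 CPM in cGAMP 2 to 2.92 CPM in G3-YSD 2, while *Cdh5* reached 0.248 CPM. The part of these markers in the results on G3-YSD and HSV was not tested.

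Promoter sequence was looked up because the 7 genes are known as interferon targets and 5 of them ranged over 10-fold between libraries. It is shown for 3 members, of which *Parp12* (4.41-fold) and *Zc3hav1* (3.24-fold) ranged less. RefSeq promoter windows, from 250 bases before to 50 bases after a start site on GRCm38.p6, matched 4 of the 7 members in 5 windows: 2 for *Parp11* and 1 each for *Parp12*, *Dtx3l* and *Zc3hav1*. The 100 bases before the start site are printed 5′ to 3′ on the strand of the gene, and capitals mark the letters that match the ISRE core motif, which was searched as GAAA, any 2 bases and GAAA; the match is on the opposite strand.
Parp11, chr6:127446740-127446839, plus strand: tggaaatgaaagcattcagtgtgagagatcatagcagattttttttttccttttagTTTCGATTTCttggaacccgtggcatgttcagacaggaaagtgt
Parp12, chr6:39118350-39118449, minus strand: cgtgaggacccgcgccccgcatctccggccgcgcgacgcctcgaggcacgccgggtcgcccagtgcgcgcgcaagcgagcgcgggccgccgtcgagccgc
Zc3hav1, chr6:38354604-38354703, minus strand: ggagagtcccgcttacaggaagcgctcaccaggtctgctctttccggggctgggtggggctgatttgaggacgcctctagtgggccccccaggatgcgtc

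The first *Parp11* window held the only ISRE core match among the 5 windows, starting at position -44 from the start site. A match to the gamma-activated sequence motif (TTC, any 3 bases and GAA) began at position -37 and shared 3 bases with it. Neither motif, searched on both strands, was found in the second *Parp11* window or in those of *Parp12*, *Dtx3l* and *Zc3hav1*. The start sites of the *Dtx3l* window (35939027) and of the second *Parp11* window (127453627) lie inside the annotated genes. Of the 100 bases before these sites, 100 and 7 lie in annotated exons, and these stretches are not printed. The *Dtx3l* window thus lies partly inside the gene. Over all 32851 windows, 3.44% held the ISRE core and 8.3% the gamma-activated sequence. Of 9 interferon-stimulated reference genes with a window, such as *Ifit1*, *Rsad2* and *Cxcl10*, 7 held the ISRE core and 0 the gamma-activated sequence. The printed stretches differed in base composition: the *Parp12* stretch was 82% G or C with 23 CpG dinucleotides, that of *Zc3hav1* 65% with 5 and that of *Parp11* 38% with 2. These letters describe the windows only; binding was not measured, and the motifs were chosen with the levels known.

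*Parp9* encodes a macrodomain protein that partners DTX3L. The gene lies on the plus strand of chromosome 16 at 35938470 to 35972605 (GRCm38, mm10; ENSMUSG00000022906). Its levels on the TMM scale, in CPM, were 8.47 in mock 1 and 65.0 in mock 2, 6.90 in hpRNA 1 and 60.7 in hpRNA 2, and 27.6 in HT-DNA 1 and 112 in HT-DNA 2. They were 29.3 in cGAMP 1 and 114 in cGAMP 2, 323 in G3-YSD 1 and 5.69 in G3-YSD 2, and 328 in HSV 1 and 6.52 in HSV 2. The highest library thus lay 57.7-fold above the lowest, and both extremes carried the labels G3-YSD and HSV. In the first 4 labels library 2 was the higher, by 3.90 to 8.79-fold; in G3-YSD and HSV library 1 was, by 56.7-fold and 50.3-fold. The values of the 2 mock libraries overlapped with those of each other label: the mean was 36.7 ± 40.0 CPM (SD, n = 2) in mock and 164 ± 224 CPM (SD, n = 2) in G3-YSD. In bulk RNA, fewer responding cells and less RNA per cell cannot be told apart.

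*Dtx3l* encodes the ubiquitin ligase of the complex and lies head to head with *Parp9*, on the minus strand at 35926511 to 35939151 (ENSMUSG00000049502). It measured 5.74 CPM in mock 1 and 91.8 in mock 2, 7.93 in hpRNA 1 and 82.8 in hpRNA 2, and 33.7 in HT-DNA 1 and 178 in HT-DNA 2. It measured 39.6 CPM in cGAMP 1 and 184 in cGAMP 2, 346 in G3-YSD 1 and 4.15 in G3-YSD 2, and 328 in HSV 1 and 4.13 in HSV 2. The range was 83.7-fold, and the libraries that were high or low were the same as for *Parp9*, with mock and the stimuli again overlapping. The exons of *Parp9* and *Dtx3l* share 458 bases on opposite strands, 9.4% of the *Parp9* and 8% of the *Dtx3l* exon bases. How reads from that stretch were counted is not known, because the sources used here do not say whether the counting used strand.

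*Parp14* encodes a large mono-ADP-ribosyltransferase with macrodomains and lies beside *Dtx3l* on the minus strand of chromosome 16, at 35832874 to 35871544 (ENSMUSG00000034422). Its levels were 6.37 CPM in mock 1 and 190 in mock 2, 5.48 in hpRNA 1 and 168 in hpRNA 2, and 55.1 in HT-DNA 1 and 344 in HT-DNA 2. They were 62.5 CPM in cGAMP 1 and 357 in cGAMP 2, 1032 in G3-YSD 1 and 7.69 in G3-YSD 2, and 1057 in HSV 1 and 7.68 in HSV 2. At 193-fold its range was the widest of the 7 genes. Unlike *Parp9*, its lowest values were in hpRNA 1 and mock 1 rather than in G3-YSD 2 and HSV 2, but the 95% Poisson intervals of counting error overlapped: 5.24 to 7.66 CPM in mock 1 against 6.26 to 9.35 CPM in G3-YSD 2. Such intervals cover counting error only.

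*Parp10*, a mono-ADP-ribosyltransferase gene on the minus strand of chromosome 15 at 76231174 to 76243441 (ENSMUSG00000063268), was high in the same libraries as *Parp9* over a narrower range. It measured 13.5 CPM in mock 1 and 117 in mock 2, 11.9 in hpRNA 1 and 109 in hpRNA 2, and 50.7 in HT-DNA 1 and 188 in HT-DNA 2. It measured 53.9 CPM in cGAMP 1 and 194 in cGAMP 2, 225 in G3-YSD 1 and 9.46 in G3-YSD 2, and 222 in HSV 1 and 10.5 in HSV 2. The range was 23.8-fold, and each stimulus overlapped with mock. The *Parp10* levels of cGAMP 2 and HT-DNA 2 came close to those of G3-YSD 1 and HSV 1, whereas for *Parp9*, *Dtx3l* and *Parp14* these 4 libraries lay further apart. Of its exon bases, 205 (4.8%) lie in exons of *Plec* on the same strand.

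*Parp11*, which encodes another mono-ADP-ribosyltransferase, lies on the plus strand of chromosome 6 at 127446840 to 127494261 (ENSMUSG00000037997), next to the window with the ISRE core match. Its levels were 20.3 CPM in mock 1 and 51.4 in mock 2, 20.0 in hpRNA 1 and 43.8 in hpRNA 2, and 26.4 in HT-DNA 1 and 78.2 in HT-DNA 2. They were 24.6 CPM in cGAMP 1 and 82.7 in cGAMP 2, 125 in G3-YSD 1 and 9.69 in G3-YSD 2, and 128 in HSV 1 and 9.91 in HSV 2. The range was 13.2-fold, and the values of mock overlapped with those of each stimulus. In G3-YSD 2 the counting interval of 8.07 to 11.5 CPM lay below that of mock 1, 18.3 to 22.6 CPM.

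*Zc3hav1*, on the minus strand of chromosome 6 at 38305286 to 38354603 (ENSMUSG00000029826), encodes ZAP and was abundant in every library. It measured 272 CPM in mock 1 and 386 in mock 2, 268 in hpRNA 1 and 362 in hpRNA 2, and 307 in HT-DNA 1 and 342 in HT-DNA 2. It measured 320 CPM in cGAMP 1 and 360 in cGAMP 2, 601 in G3-YSD 1 and 185 in G3-YSD 2, and 568 in HSV 1 and 189 in HSV 2. The order of high and low libraries resembled that of *Parp9*, yet the range was only 3.24-fold. HT-DNA and cGAMP lay inside the mock range.

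*Parp12*, the closest relative of ZAP among the members, with zinc fingers of the same CCCH kind, was near the limit of detection. The gene lies on the minus strand of chromosome 6 at 39086410 to 39118349 (ENSMUSG00000038507). Its raw counts were 13 in mock 1 and 6 in mock 2, 10 in hpRNA 1 and 12 in hpRNA 2, and 14 in HT-DNA 1 and 7 in HT-DNA 2. They were 13 in cGAMP 1 and 15 in cGAMP 2, 14 in G3-YSD 1 and 21 in G3-YSD 2, and 10 in HSV 1 and 18 in HSV 2. On the TMM scale these are 0.366 CPM in mock 2, with a 95% Poisson interval of 0.134 to 0.797, up to 1.61 CPM in G3-YSD 2, with an interval of 1.000 to 2.47. The libraries highest for *Parp12*, G3-YSD 2 and HSV 2, were the lowest for *Parp9* and *Parp10*, and G3-YSD 1 and HSV 1, where the other 6 members were highest, stood at 0.827 and 0.613 CPM.

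**Figure D1:**
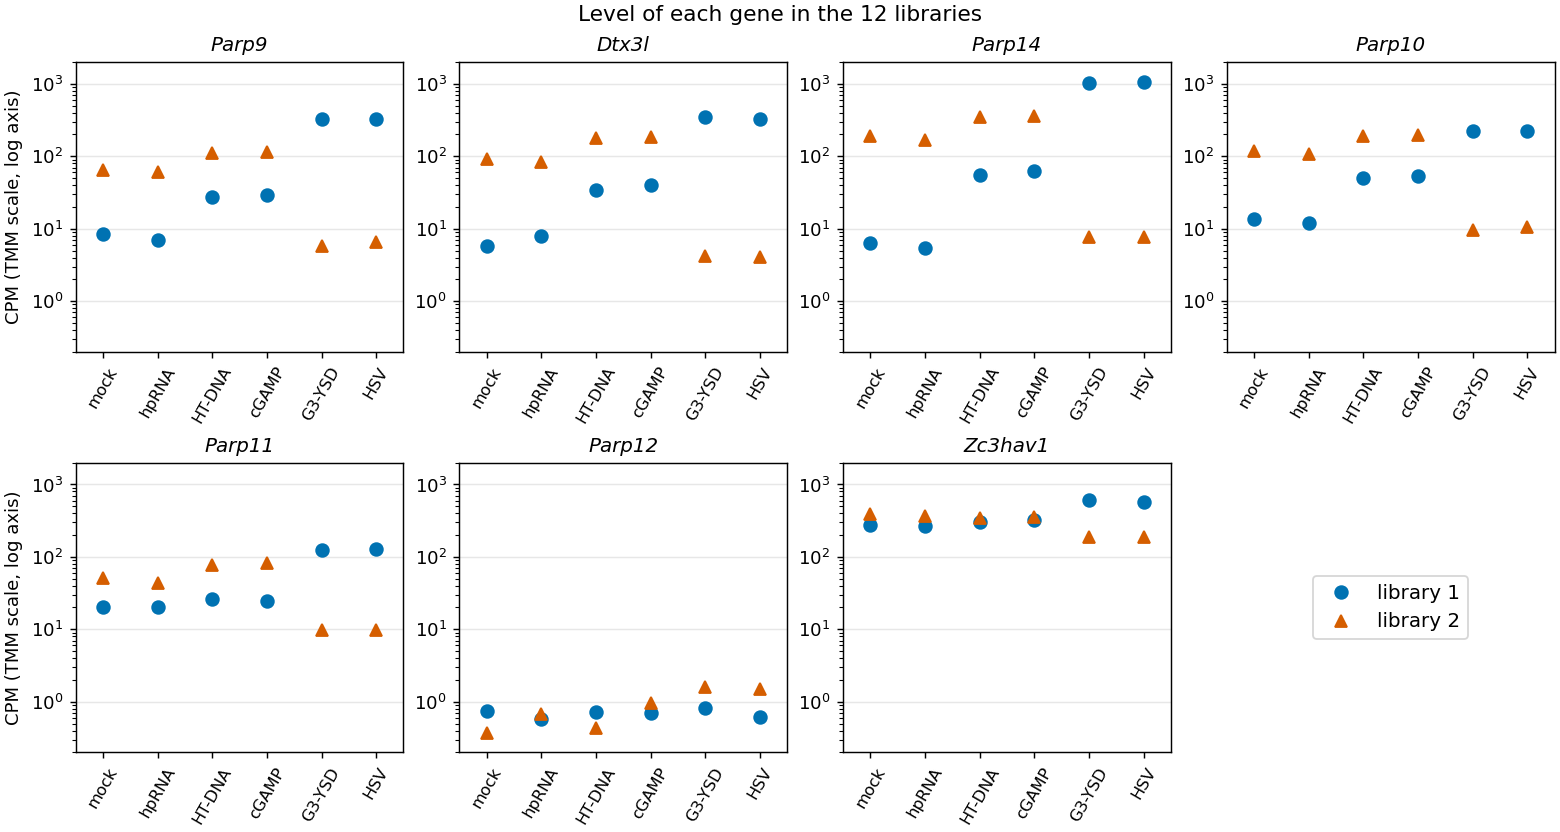
Level of each of the 7 genes in the 12 libraries, in CPM on the TMM scale (log axis), by label, with circles for library 1 and triangles for library 2. *Parp9*, *Dtx3l*, *Parp14*, *Parp10* and *Parp11* are highest in G3-YSD 1 and HSV 1 and near their lowest in G3-YSD 2 and HSV 2, *Zc3hav1* follows over a range of 3.24-fold, and *Parp12* stays between 0.366 and 1.61 CPM.

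Between genes, levels were compared per kilobase of exon. By the median over the 12 libraries *Zc3hav1* led with 50.8 CPM per kb, followed by *Parp10* with 19.1, *Parp14* with 12.4, *Dtx3l* with 10.7, *Parp9* with 9.24, *Parp11* with 4.99 and *Parp12* with 0.179. *Zc3hav1* was first in 10 libraries and *Parp14* in 2, G3-YSD 1 and HSV 1, where *Parp14* reached 111 and 114 CPM per kb against 92.2 and 87.1 for *Zc3hav1*. *Parp12* was last in all 12. The spread over libraries was far wider than the steps between *Parp10*, *Parp14*, *Dtx3l*, *Parp9* and *Parp11*. Within libraries *Parp10* lay above *Parp14* in 10 of 12, *Parp14* above *Dtx3l* in 9, *Dtx3l* above *Parp9* in 6 and *Parp9* above *Parp11* in 8, so the order of *Dtx3l* and *Parp9* was not settled. With the length of the longest transcript in place of all exon bases, *Parp9* and *Dtx3l* changed places and the other 5 kept theirs.

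The first question of the design is what each stimulus did to these genes relative to mock. Transfected HT-DNA gave *Parp9* a log2 fold change of 0.93 (standard error, SE, 2.02), *Dtx3l* 1.11 (SE 2.24), *Parp14* 1.02 (SE 2.54), *Parp10* 0.87 (SE 1.81) and *Parp11* 0.54 (SE 1.35), while *Parp12* at 0.07 and *Zc3hav1* at -0.02 were near 0. With edgeR's quasi-likelihood test and Benjamini-Hochberg adjustment over 16840 genes, 0 of the 7 members passed an adjusted p of 0.05, against 0% of all genes tested, and each adjusted p was 1. At an unadjusted p under 0.05 the members' count was also 0, as it was with DESeq2. With edgeR, 62 of all 16840 genes were under this unadjusted limit here, 99 for cGAMP and 58 for hpRNA against mock, and 77 for HT-DNA against hpRNA. The members' median was 0.87, beside -0.001 over all genes. For *Parp9*, *Dtx3l*, *Parp14*, *Parp10* and *Parp11* the difference between the labels was smaller than the spread within them. Compared number by number, HT-DNA 1 lay above mock 1 and HT-DNA 2 above mock 2 for these 5 members, as for 25.5% of all genes: *Parp9* by 3.26-fold and 1.73-fold, and *Parp14* by 8.65-fold and 1.81-fold. The labels do not say what a number marks. Leaving out HT-DNA 2 turned the 5 *Parp9*-like members, *Parp9*, *Dtx3l*, *Parp14*, *Parp10* and *Parp11*, to between -0.37 and -0.84, and without mock 2 they were between 1.38 and 4.99.

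For cGAMP against mock the log2 fold changes were 0.97 (SE 2.02) for *Parp9*, 1.20 (SE 2.25) for *Dtx3l*, 1.09 (SE 2.55) for *Parp14*, 0.92 (SE 1.81) for *Parp10*, 0.58 (SE 1.35) for *Parp11*, 0.59 (SE 0.62) for *Parp12* and 0.05 (SE 0.59) for *Zc3hav1*. All 7 were above 0 and 0 passed edgeR's test, against 0% of all genes, with each adjusted p at 1, 0 at an unadjusted p under 0.05 and 0 by DESeq2. The median was 0.92 for the members and 0 for all genes. HT-DNA and cGAMP were set against the same mock libraries. Number by number the same 5 members were higher in cGAMP than in mock both times, as were 25.8% of all genes, *Parp9* by 3.46-fold and 1.76-fold. Without cGAMP 2 these 5 were between -0.28 and -0.66.

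Transfected hpRNA gave members' means close to those of mock, with log2 fold changes from -0.18 (SE 2.52) for *Parp14* to -0.07 for *Zc3hav1*, and 0.16 (SE 0.63) for *Parp12*. In edgeR's test 0 of 7 passed, against 0% of all genes, with each adjusted p at 1, 0 at an unadjusted p under 0.05 and 0 by DESeq2. The median was -0.11, beside 0 over all genes. The standard errors do not show that hpRNA and mock were alike: without mock 2 *Parp14* stood at 3.77, and without hpRNA 2 at -4.17.

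G3-YSD and HSV gave the largest mean differences for *Parp9*, *Dtx3l* and *Parp14*. For G3-YSD against mock the log2 fold changes were 2.16 (SE 2.09) for *Parp9*, 1.84 (SE 2.28) for *Dtx3l*, 2.40 (SE 2.65) for *Parp14*, 0.84 (SE 1.81) for *Parp10*, 0.91 (SE 1.36) for *Parp11*, 1.12 (SE 0.62) for *Parp12* and 0.26 (SE 0.59) for *Zc3hav1*. In edgeR's test 0 of 7 passed, 0 were under an unadjusted p of 0.05 and 0 passed with DESeq2, whereas 5.16% of all genes passed edgeR's test. At the unadjusted limit edgeR's test had 4072 of all 16840 genes. The lowest adjusted p of the members was 0.296, for *Parp12*, the only member whose G3-YSD libraries both lay above both mock libraries, at 14 and 21 counts against 13 and 6. Such non-overlap above mock was found for 24.4% of all genes, and the counting intervals of G3-YSD 1 (0.452 to 1.39 CPM) and mock 1 (0.393 to 1.26 CPM) overlapped. The members' median was 1.12, beside 0.11 over all genes. Without G3-YSD 1 the values of *Parp9*, *Dtx3l*, *Parp14*, *Parp10*, *Parp11* and *Zc3hav1* were between -0.84 and -3.69, and without G3-YSD 2 between 0.85 and 3.38, so their sign rested on which G3-YSD library was kept; without mock 1 *Parp10* was at -0.02. Over all genes 302 were called higher and 567 lower, against 364 and 314 with upper quartile scaling and 987 and 1119 with DESeq2; 0 were called without either mock library and 77 without G3-YSD 2.

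HSV against mock gave 2.19 (SE 2.09) for *Parp9*, 1.77 (SE 2.28) for *Dtx3l*, 2.44 (SE 2.65) for *Parp14*, 0.83 (SE 1.81) for *Parp10*, 0.94 (SE 1.36) for *Parp11*, 0.90 (SE 0.63) for *Parp12* and 0.20 (SE 0.59) for *Zc3hav1*. In edgeR's test 0 of 7 passed, against 5.2% of all genes, with 0 under an unadjusted p of 0.05 and 0 by DESeq2. At the unadjusted limit edgeR's test had 4092 of all 16840 genes. The lowest adjusted p was 0.392, again for *Parp12*, and the median was 0.94, beside 0.10 over all genes. The mock libraries are shared with the G3-YSD comparison. Leaving out HSV 1 gave -0.82 to -3.69 for the members other than *Parp12*, and without mock 1 *Parp10* was at -0.01 and *Zc3hav1* at -0.03. Over all genes 291 were called higher and 585 lower, against 347 and 304 with upper quartile scaling and 968 and 1170 with DESeq2; 0 were called without either mock library and 130 without HSV 2.

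The comparison of the agents labelled as DNA and as RNA, HT-DNA against hpRNA, gave 1.05 (SE 2.03) for *Parp9*, 1.22 (SE 2.25) for *Dtx3l*, 1.21 (SE 2.55) for *Parp14*, 0.98 (SE 1.81) for *Parp10*, 0.71 (SE 1.36) for *Parp11*, -0.09 (SE 0.63) for *Parp12* and 0.05 (SE 0.59) for *Zc3hav1*. Of the 7, 0 passed edgeR's test, against 0% of all genes, with each adjusted p at 1, 0 at an unadjusted p under 0.05 and 0 by DESeq2. Compared number by number, HT-DNA 1 lay above hpRNA 1 and HT-DNA 2 above hpRNA 2 for *Parp9*, *Dtx3l*, *Parp14*, *Parp10* and *Parp11*; this held for 24.7% of all genes, and *Zc3hav1* was higher in HT-DNA 1 and lower in HT-DNA 2. Without HT-DNA 2 these 5 were between -0.26 and -0.66.

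**Figure D2:**
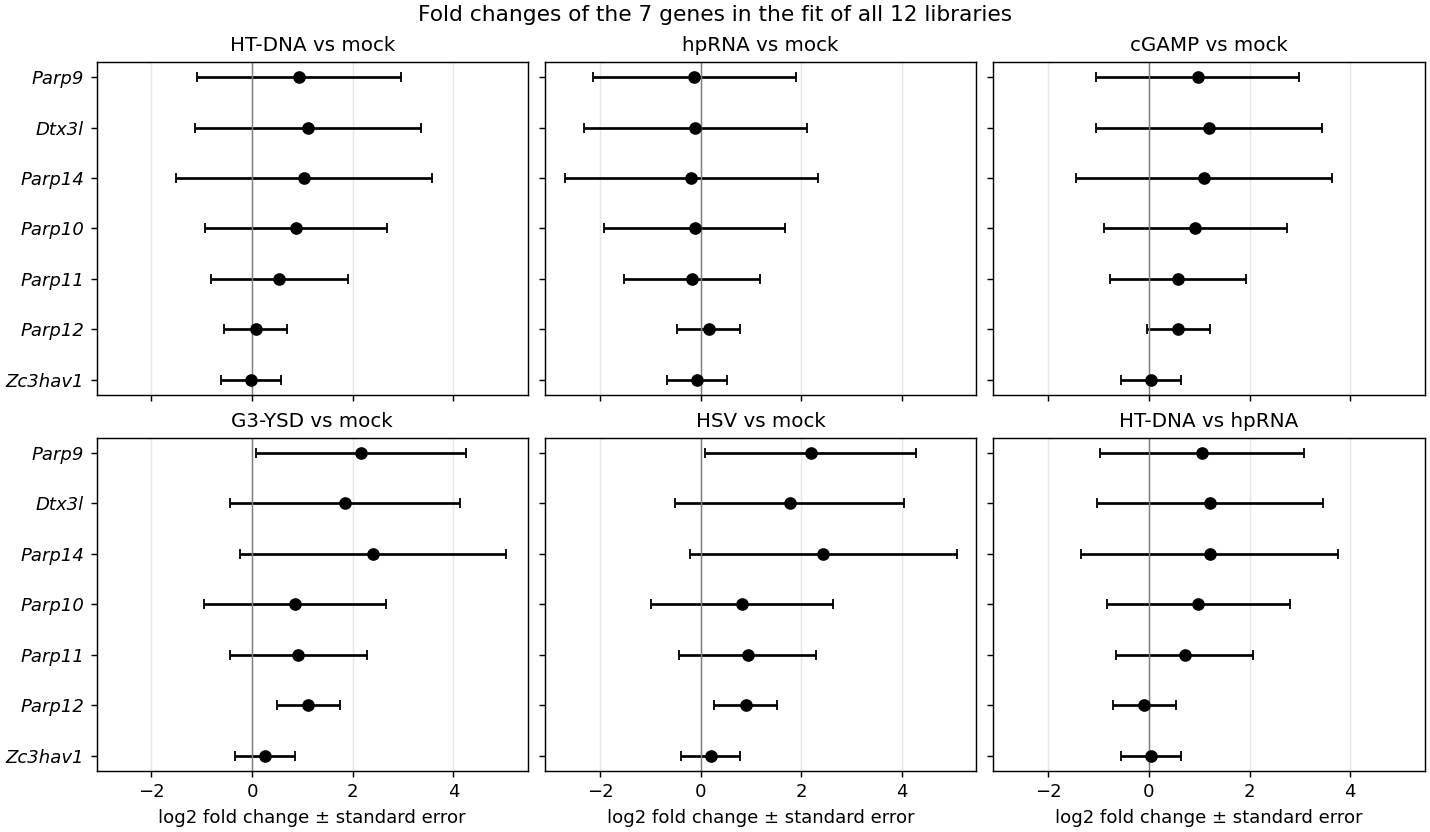
Log2 fold changes of the 7 genes in the 6 comparisons (points) with their standard errors (bars), from the fit of all 12 libraries. The largest values are those of *Parp14* and *Parp9* in G3-YSD and HSV against mock, between 2.16 and 2.44 with standard errors of 2.09 to 2.65, and 0 of 7 members passed the test in each comparison.

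Within a library, ratios of raw counts do not depend on the scaling, and they showed that the members did not keep fixed proportions. The ratio of *Parp10* to *Parp9* was 1.59 to 1.84 in 10 libraries and 0.698 in G3-YSD 1 and 0.677 in HSV 1. The ratio of *Parp14* to *Parp9* was 0.752 in mock 1 and 0.793 in hpRNA 1, 1.35 in G3-YSD 2 and 1.18 in HSV 2, 2.00 in HT-DNA 1 and 2.13 in cGAMP 1, and 2.76 to 3.22 in the 6 libraries with the highest *Parp9* levels. *Parp14* thus took a larger multiple of *Parp9* where *Parp9* was high, while *Parp10* took a smaller one only in G3-YSD 1 and HSV 1 among the 12 libraries. The ratio of *Dtx3l* to *Parp9*, the 2 partners of 1 complex, was 0.633 in HSV 2, 0.678 in mock 1 and 0.730 in G3-YSD 2, near 1 in HSV 1 at 0.999 and G3-YSD 1 at 1.07, and 1.15 to 1.61 in the other 7. These ratios of whole-gene counts carry the gene lengths, were chosen after the values were seen, and have no test.

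**Figure D3:**
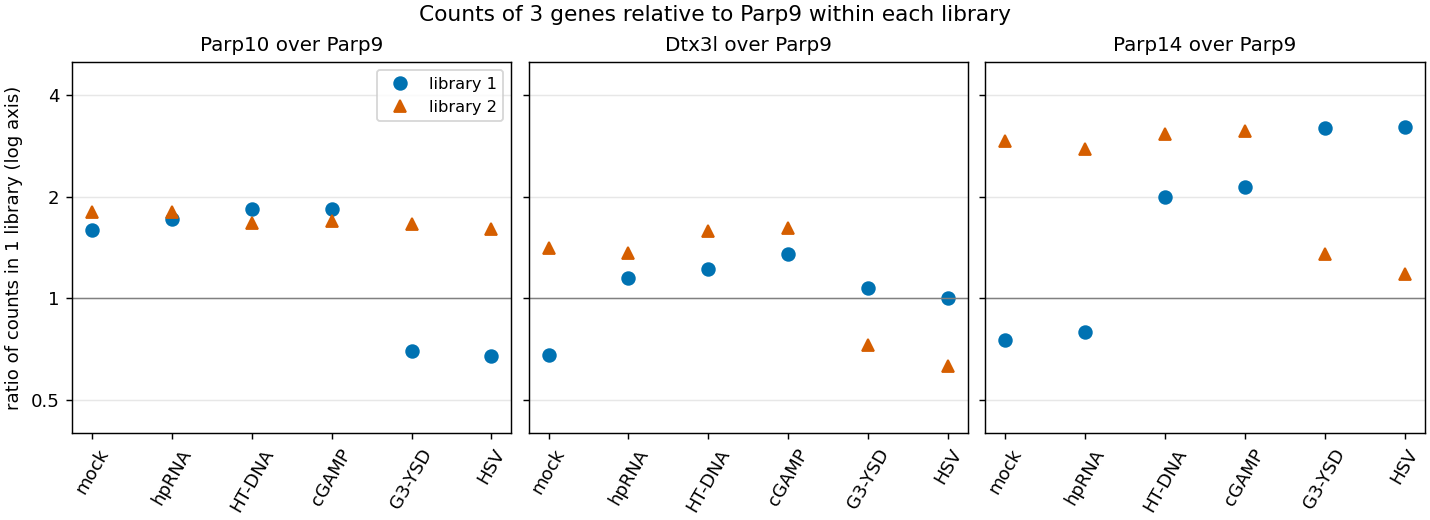
Ratios of raw counts to those of *Parp9* in each library (log axis) for *Parp10*, *Dtx3l* and *Parp14*, by label, with circles for library 1 and triangles for library 2; the grey line marks a ratio of 1. The *Parp10* ratio is below 1 in G3-YSD 1 and HSV 1 and 1.59 to 1.84 elsewhere, and the *Parp14* ratio runs from 0.752 in mock 1 to 3.22 in HSV 1.

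*Parp14*, *Dtx3l* and *Parp9* are neighbours on chromosome 16, and the named genes on either side had narrower ranges. Within 100 kb of a member, 26 other genes passed the filter, 8 of them on chromosome 16, where the 6 with names other than predicted genes ranged from 1.59-fold to 3.08-fold between the lowest and the highest library. *Hspbap1*, 4.40 kb from *Parp14*, ranged 1.99-fold and *Kpna1*, an importin gene 6.14 kb from *Parp9*, ranged 1.94-fold, beside 193-fold, 83.7-fold and 57.7-fold for the 3 members between them. Of the 2 predicted genes, *Gm15564* ranged 4.30-fold, and *Gm49730*, which overlaps *Parp14* on the same strand over 110 exon bases, ran from 0 in hpRNA 1 to 2.94 CPM in HSV 1, with r of 0.79 to 0.86 to the 3 members. Whether the 2 genes share reads was not tested. *Zc3hav1l*, the paralogue 6.03 kb from *Zc3hav1*, ranged 2.28-fold and was lower where *Zc3hav1* was higher, with a Pearson r of -0.81 over the 12 libraries. Of the 26 neighbours, 1 (3.85%, against 5.16% of all genes) passed edgeR's test in G3-YSD against mock, *D630045J12Rik* beside *Zc3hav1*, with a log2 fold change of -1.11 and an adjusted p of 0.0186; without either mock library no gene was called in this comparison.

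**Figure D4:**
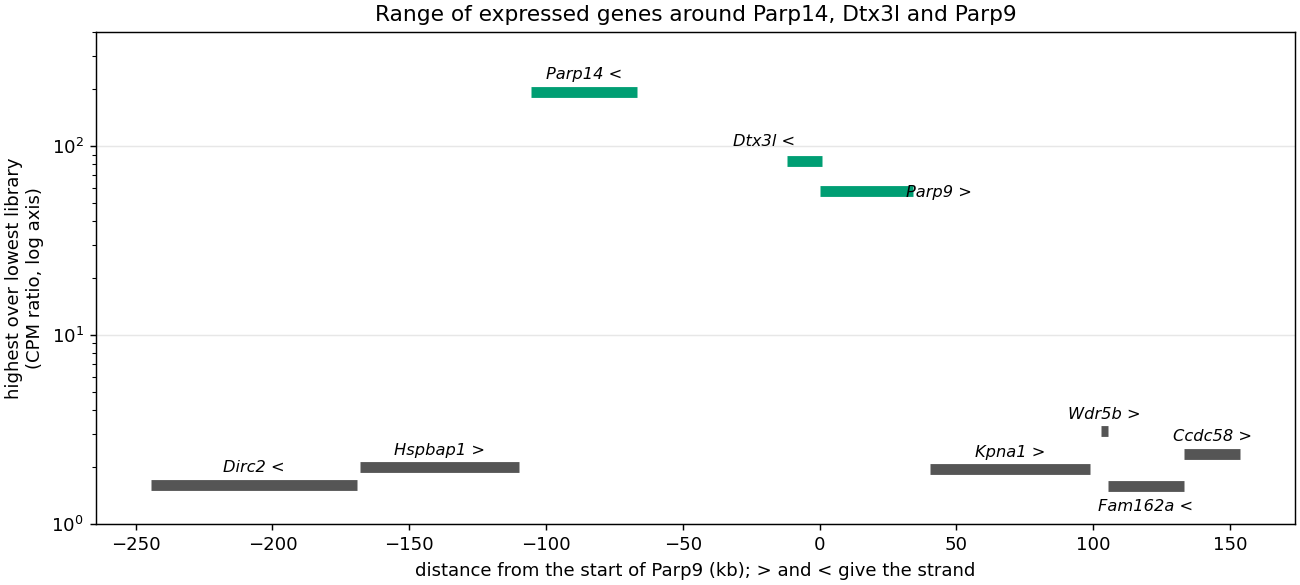
Highest over lowest library in CPM (log axis) for named genes around *Parp14*, *Dtx3l* and *Parp9*, drawn at their distance in kb from the start of *Parp9*; green bars are the 3 members, grey bars their neighbours. The members range from 57.7-fold to 193-fold and the 6 neighbours from 1.59-fold to 3.08-fold.

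Most of the rest of the PARP family varied little. Of 10 other family members 9 passed the filter, and 7 of the 9 ranged under 2.1-fold over the 12 libraries, less than each of the 7 members. *Parp1*, the DNA-damage sensor that builds long ADP-ribose chains, lay between 182 and 294 CPM, and the tankyrases *Tnks* and *Tnks2* between 62.7 and 97.1 CPM and between 135 and 219 CPM. The other 2 were *Tiparp*, at 21.1 to 114 CPM (5.41-fold), and *Parp3*, at 24.9 to 96.3 CPM (3.87-fold), both highest in G3-YSD 1. *Tiparp* thus had a wider range than *Parp12* (4.41-fold) and *Zc3hav1* (3.24-fold), and *Parp3* a wider range than *Zc3hav1*. Each of the 6 comparisons called 0 of the 9 with edgeR. At an unadjusted p under 0.05 from the same test, all 16840 genes gave 4072 for G3-YSD and 4092 for HSV against mock. The count among the 9 at that limit was 1 for G3-YSD and 2 for HSV against mock and 0 in the others. The summed level of this list was 643 to 713 CPM per library, against 224 to 2652 CPM for the 7 members.

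**Figure D5:**
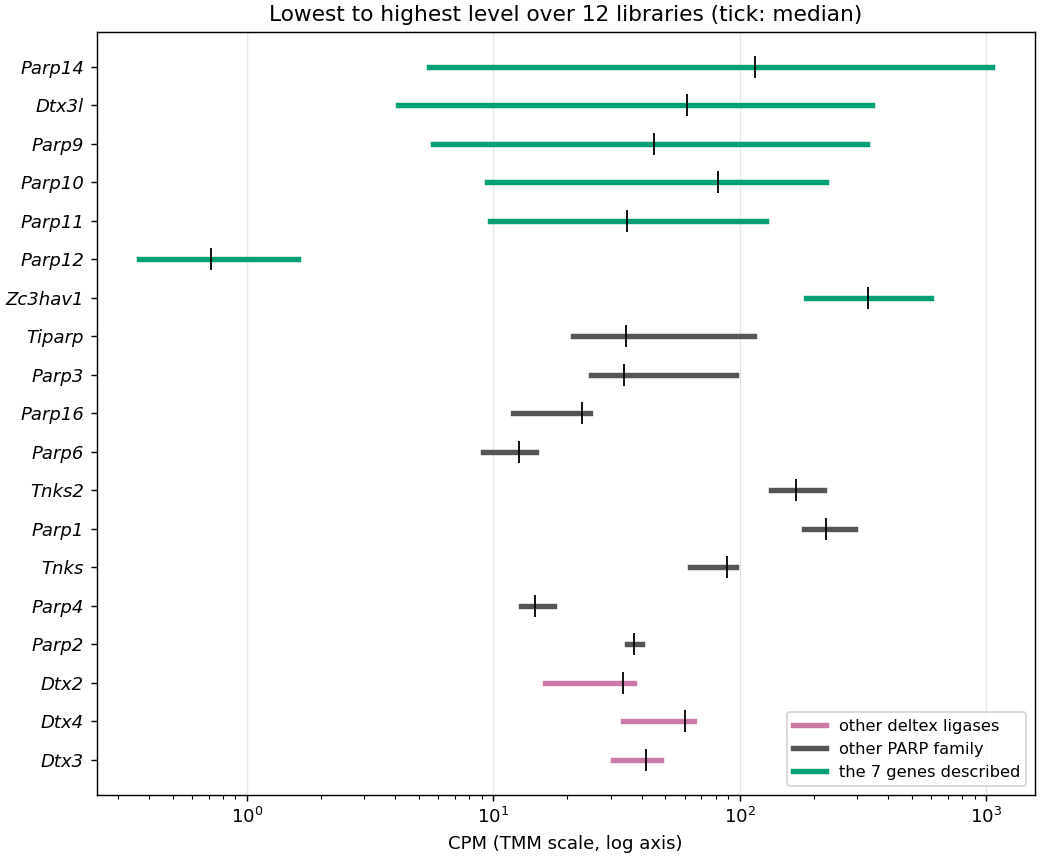
Lowest to highest level over the 12 libraries (bars) and the median (ticks) in CPM on a log axis, for the 7 genes described (green), the other PARP family genes (grey) and the other deltex ligases (pink) that passed the filter. *Parp14* spans 193-fold and *Parp2* 1.15-fold.

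Among the other deltex ligases, relatives of *Dtx3l*, 3 of 4 passed the filter and *Dtx1* had at most 2 counts. *Dtx2* was lower in G3-YSD (18.4 CPM) and HSV (17.5 CPM) than in mock (33.4 CPM), by log2 fold changes of -0.86 (SE 0.14, edgeR adjusted p 0.0182) and -0.93 (SE 0.14, edgeR adjusted p 0.0157). *Dtx3* and *Dtx4* did not pass. With either mock library left out no gene was called in these comparisons, *Dtx2* included. Of 8 genes that remove ADP-ribose or assist its transfer, 6 were tested, including the glycohydrolase *Parg*, the hydrolase *Adprh* and the cofactor *Hpf1*. Only *Adprhl2*, a serine ADP-ribosylhydrolase gene, was called, lower in G3-YSD than in mock with a log2 fold change of -0.63 (SE 0.13, edgeR adjusted p 0.0356), while HSV gave -0.55 with an adjusted p of 0.0549 from edgeR.

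Partners of ZAP and the NAD supply varied widely in single genes. Of 11 genes for ZAP partners and RNA decay, edgeR called 0 in each comparison, with 3 under an unadjusted p of 0.05 for G3-YSD, 2 for HSV and 0 in the other 4. Over all 16840 genes, that limit was met by 4072 for G3-YSD and 4092 for HSV. *Trim25*, the ubiquitin ligase that works with ZAP, ranged from 74.0 CPM in G3-YSD 2 to 948 CPM in HSV 1, and *N4bp1*, which encodes a ribonuclease, from 42.5 to 176 CPM, while *Ddx17* at 352 to 643 CPM and *Exosc2* at 74.5 to 104 CPM varied less. Of 8 NAD synthesis genes 0 were called in each comparison by edgeR, with 1 under an unadjusted p of 0.05 for G3-YSD and 0 elsewhere. *Nampt*, the enzyme of NAD salvage, ranged from 92.6 CPM in HSV 2 to 522 CPM in G3-YSD 1, and *Nadk*, *Nmnat1* and *Nadsyn1* ranged under 2.1-fold.

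Genes of interferon signalling were measured in the same libraries. Of 14 signalling genes 0 were called in each comparison by edgeR, with 3 under an unadjusted p of 0.05 for G3-YSD, 2 for HSV and 0 elsewhere. Of all 16840 genes, 4072 were under this limit for G3-YSD and 4092 for HSV. The signalling list's median log2 fold change was 0.57 for G3-YSD and 0.53 for HSV, beside 0.11 and 0.10 over all genes. *Stat2* ran from 23.2 CPM in hpRNA 1 to 550 CPM in HSV 1, *Irf9* from 12.2 to 180 CPM and *Irf1* from 13.5 to 358 CPM, while *Jak1* stayed between 206 and 347 CPM. The ligand gene *Ifnb1*, named here with its values known, had no count in mock 1 or hpRNA 1. In these libraries 3 counts would be 0.171 and 0.171 CPM. Its level was 26.6 CPM in G3-YSD 1, 4.31 CPM in G3-YSD 2 and 1.83 CPM in mock 2. Of 11 interferon-stimulated reference genes, among them *Ifit1*, *Rsad2*, *Oasl2* and *Cxcl10*, 0 were called in each comparison by edgeR and 0 were under an unadjusted p of 0.05. Their summed level was 27.2 CPM in mock 1 and 3000 CPM in mock 2. It was 12969 CPM in G3-YSD 1 but 293 CPM in G3-YSD 2, and 12877 CPM in HSV 1 but 266 CPM in HSV 2.

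Over the 12 libraries and on log2(CPM + 1), *Parp9*, *Dtx3l*, *Parp14*, *Parp10* and *Parp11* correlated with each other at a Pearson r of 0.95 to 0.99. Their r with *Zc3hav1* was 0.88 to 0.94, and *Parp12* correlated with the other 6 at -0.44 to -0.59. Among 9863 protein-coding genes with a mean of at least 5 CPM, the 10 with the highest median r to the 7 members were *Ogfr* (0.989), *Tor3a*, *Igtp*, *Gm14137*, *Adar*, *Stat2*, *Uba7*, *Daxx*, *Oas1g* and *Gm4951* (0.981). The single genes most like each member were *Plekha4* for *Parp9* (0.996), *Tor3a* for *Dtx3l* (0.996), *Igtp* for *Parp14* (0.999), *Ifi203* for *Parp10* (0.998), *Rnf114* for *Parp11* (0.997), *Ssr3* for *Parp12* (0.944) and *Nampt* for *Zc3hav1* (0.994). All these points share the 12 libraries and their depths, and 4 of the libraries, G3-YSD 1, HSV 1, G3-YSD 2 and HSV 2, hold the extremes of most members, so the coefficients are a description and carry no test.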

How the data were processed

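RNA of L929 cells was sequenced in 12 libraries on an Illumina HiSeq4000, per the labels' protocols. The deposited values are unnormalised read counts by Ensembl gene. Per the submitters' processing notes, HISAT2, HTSeq and mm10 were used; no version is named. Which annotation was counted, and whether by strand, is not given in the sources used here.

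Of 54532 genes listed, 54409 matched GENCODE M21 (GRCm38), which gave symbols, positions and exon lengths. The counts were fitted with edgeR 4.0.16 in R 4.3.3: default filter on low counts, TMM scaling, 1 term per label over all 12 libraries, quasi-likelihood test (6 residual degrees of freedom, biological coefficient of variation 0.397) and Benjamini-Hochberg adjustment over 16840 genes, with a gene called at an adjusted p under 0.05. DESeq2 1.42.0 was an alternative. The same kind of fit was tried on simulated counts of the 8 libraries without G3-YSD and HSV, with the spread of those libraries. The fit of all 12 libraries was not tried on simulated counts. CPM were computed here on the TMM scale, and intervals are exact Poisson 95% intervals. Alternatives were other scaling, no filter, fewer libraries, the replicate number as a block, and each library left out.

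The 7 members and all gene lists were chosen with earlier results of these data known. The text names all members, up to 4 genes of each other list by highest mean CPM, the 10 genes most like the members with 1 more per member, and expressed neighbours within 100 kb. Genes named outside this rule (*Ifnb1*, *Tiparp*, *Parp2*, *Thy1*, and *Ifit3* and *Mx1* among the reference genes) were chosen after their values were seen.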

Additional observations from a re-analysis of the deposited data

How the results depend on the processing

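Under each alternative run, 0 of the 7 members were called in each comparison. Of 280 member values from alternatives that kept both libraries of the labels compared, 278 kept their direction. The 2 that changed sign, both near 0 and both with the replicate block over 8 libraries, were *Zc3hav1* at 0.0051 in HT-DNA against mock and *Dtx3l* at 0.0084 in hpRNA against mock. Upper quartile scaling shifted the median of all genes by 0.14 in G3-YSD and 0.15 in HSV against mock on the log2 scale. By the longest transcript *Parp9* and *Dtx3l* exchanged ranks 4 and 5, and with Spearman correlation 2 of the 10 genes most like the members, *Gm14137* and *Gm4951*, were among the 10 by Pearson correlation too. *Parp12*, with 6 to 21 counts per library, is the member that depth limits most.

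Counts of genes called over all genes depended more on the setting. DESeq2 called 1 in HT-DNA, 1 in hpRNA, 0 in cGAMP, 2106 in G3-YSD and 2138 in HSV against mock. Without the filter on low counts edgeR called 1894 in G3-YSD and 1892 in HSV, and with only the 4 libraries compared 0 and 0. With each library left out in turn, the counts ran from 0 to 652 in G3-YSD and from 0 to 682 in HSV, with 0 without either mock library.

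The labels do not say what a replicate number marks. Deviations of same-numbered libraries correlated at 0.32 to 0.59 among mock, HT-DNA, hpRNA and cGAMP and at 0.93 between G3-YSD and HSV, but at -0.33 to -0.29 across these sets. With the replicate block over all 12 libraries edgeR called 1211 genes in G3-YSD and 1214 in HSV and 0 elsewhere. With the block over the 8 libraries without G3-YSD and HSV it called 14 genes in HT-DNA, 0 in hpRNA and 23 in cGAMP against mock and 25 in HT-DNA against hpRNA. With this block, 5 members were under an unadjusted p of 0.05 in edgeR's test in HT-DNA against mock, and 0 in hpRNA against mock. Over all genes, 1231 of 14543 were under that limit in HT-DNA and 355 of 14543 in hpRNA against mock. *Parp9* was at 1.18 (SE 0.28, edgeR adjusted p 0.357) in HT-DNA against mock. The 8 libraries without a block, an alternative chosen after seeing the data, gave 0 calls. A block with the numbers of G3-YSD and HSV crossed, also chosen after seeing the data, called 1878 and 1935 genes.

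Of 168 member values with a library left out, 53 changed sign; the lone library is then assumed to vary like the other groups. In HT-DNA against mock the log2 fold change was -0.42 to 3.06 for *Parp9*, -0.54 to 4.22 for *Dtx3l*, -0.84 to 4.99 for *Parp14*, -0.37 to 3.17 for *Parp10*, -0.45 to 1.38 for *Parp11*, -0.34 to 0.66 for *Parp12* and -0.25 to 0.27 for *Zc3hav1*. In hpRNA against mock it was -2.42 to 2.00 for *Parp9*, -2.63 to 2.99 for *Dtx3l*, -4.17 to 3.77 for *Parp14*, -2.47 to 2.18 for *Parp10*, -0.85 to 0.66 for *Parp11*, -0.24 to 0.75 for *Parp12* and -0.30 to 0.22 for *Zc3hav1*. In cGAMP against mock it was -0.33 to 3.09 for *Parp9*, -0.30 to 4.29 for *Dtx3l*, -0.66 to 5.05 for *Parp14*, -0.28 to 3.21 for *Parp10*, -0.55 to 1.40 for *Parp11* and -0.19 to 0.32 for *Zc3hav1*. In G3-YSD against mock it was -2.70 to 4.27 for *Parp9*, -3.56 to 4.92 for *Dtx3l*, -3.69 to 6.34 for *Parp14*, -2.80 to 3.11 for *Parp10*, -1.90 to 1.79 for *Parp11* and -0.84 to 0.85 for *Zc3hav1*. In HSV against mock it was -2.50 to 4.31 for *Parp9*, -3.57 to 4.86 for *Dtx3l*, -3.69 to 6.39 for *Parp14*, -2.65 to 3.12 for *Parp10*, -1.87 to 1.82 for *Parp11* and -0.82 to 0.77 for *Zc3hav1*. In HT-DNA against hpRNA it was -0.30 to 3.36 for *Parp9*, -0.43 to 3.75 for *Dtx3l*, -0.66 to 5.20 for *Parp14*, -0.26 to 3.35 for *Parp10*, -0.28 to 1.40 for *Parp11*, -0.51 to 0.22 for *Parp12* and -0.15 to 0.29 for *Zc3hav1*. *Parp12* kept its sign in cGAMP, G3-YSD and HSV against mock. The cause of these changes was not tested beyond the library left out.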

Other observations

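The low libraries of G3-YSD and HSV differed from the low libraries of mock and hpRNA in which genes were low. Of 11 interferon-stimulated reference genes, 11 were higher in both G3-YSD 2 and HSV 2 than in both mock 1 and hpRNA 1, whereas of the 7 members 2 (*Parp14* and *Parp12*) were higher and 5 (*Parp9*, *Parp10*, *Parp11*, *Dtx3l* and *Zc3hav1*) were lower. Of all genes tested 43.0% were higher and 39.3% lower in the same sense, so the members' counts alone do not set them apart. The counting intervals of the 4 libraries were separate for *Parp11* and *Zc3hav1* only; for *Parp14*, for example, they were 6.26 to 9.35 CPM in G3-YSD 2 and 5.24 to 7.66 CPM in mock 1. These counts were the same with total counts, TMM and DESeq2 scaling; with upper quartile scaling 3 members (*Parp11*, *Dtx3l* and *Zc3hav1*) were lower in all, and *Parp9* and *Parp10* no longer were. In G3-YSD 2 *Cxcl10*, a chemokine gene, stood at 75.3 CPM, 44.1 times its level in mock 1, *Ifit1* at 65.7 CPM, 31.3 times, *Rsad2* at 74.0 CPM, 21.7 times, and *Oasl2* at 13.7 CPM, 4.54 times. The other reference genes lay between 1.97 times (*Mx1*) and 10.2 times (*Ifit3*). In the same library *Parp11* stood at 0.476 times, *Parp9* at 0.672 times, *Zc3hav1* at 0.681 times, *Parp10* at 0.702 times, *Dtx3l* at 0.723 times, *Parp14* at 1.21 times and *Parp12* at 2.19 times their mock 1 level. Of the signalling genes, *Stat2* stood at 1.00 times, *Irf9* at 1.17 times, *Jak1* at 1.53 times and *Irf1* at 2.42 times. *Ifnb1*, which encodes interferon beta, was at 4.31 CPM in G3-YSD 2 and 4.13 CPM in HSV 2, above the 1.83 CPM of mock 2, a library in which *Parp9* was at 65.0 CPM against 5.69 in G3-YSD 2. *Trim25* was also lower in G3-YSD 2 than in mock 1, at 0.492 times. The comparison sets single libraries side by side, was chosen after the values were seen and has no test.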
